A study of Mus musculus with 24 samples.

Results

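Mouse brain was compared with mouse heart for H3K27Ac, acetylation of lysine 27 on histone H3, as read by chromatin immunoprecipitation and sequencing. The comparison took all 26944 genes with at least 1 read in the deposited table and 4 of its 8 libraries. These were brain FFPE, brain Frozen, heart FFPE and heart Frozen, with preservation as a block in the model. FFPE organs went through 10% formalin and paraffin, and chromatin came out of the cleared tissue by heating at 95 °C for 20 min. Frozen tissue was a core of a snap-frozen organ, crosslinked with 1% formaldehyde for 30 min. The same antibody, ultrasound shearing instrument (PIXUL) and immunoprecipitation protocol served both preservations. Of 24 labelled samples, 8 are H3K27Ac samples of brain or heart, 2 for each organ and preservation, but the table has 1 column for each and the columns carry no replicate number. Strain, age, sex and the animal behind a column are unknown here, as are the region of the brain and the chamber of the heart that were taken and whether a column is 1 sample or merged reads. The labels name 2 ChIP runs and 2 library kits that cannot be matched to columns, so run and kit cannot be told apart from organ.

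H3K27Ac is placed by the acetyltransferases CBP and p300 at active promoters and enhancers, and genes that give a cell its identity often carry broad domains of it. It is removed by histone deacetylases and read by bromodomain proteins that recruit the transcription machinery. Brain tissue is a mixture of neurons, astrocytes, oligodendrocytes, microglia and vessels, and heart tissue of cardiomyocytes, endothelial cells, fibroblasts, mural cells and macrophages. In such tissue a smaller number of cells of a type and less of the mark per cell cannot be told apart.

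Each value is log2 CPM, the base 2 logarithm of the reads over a gene scaled by the authors to the size of the library, and a difference of 1 is a factor of 2. Brain FFPE and brain Frozen held 4618827 and 4713901 reads over genes, against 5743071 and 4808023 in heart FFPE and heart Frozen. Mitochondrial genes took 16% and 5.62% of these reads in brain FFPE and brain Frozen, against 36.0% and 5.45% in heart FFPE and heart Frozen. None of 15 mitochondrial genes was called, and their median difference was -1.59 in FFPE and -0.33 in Frozen tissue. The spread of the log2 values over genes was 1.82 and 1.84 (SD) in brain FFPE and brain Frozen, against 1.99 and 2.31 in heart FFPE and heart Frozen. Heart Frozen thus had the widest spread of the 4 libraries. Differences are brain minus heart with a standard error (SE) from limma, fitted over the 8 libraries of 4 organs, and a gene was called where the Benjamini-Hochberg adjusted p over all genes was under 0.05. No 2 libraries are labelled replicates of a column, so the p-values measure the spread left among these 8 libraries after organ and preservation. That spread is how far the organ differences disagree between FFPE and Frozen tissue. It may be technical or come from the pieces of tissue taken, which was not tested.

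Brain and heart differed over 5688 of 26944 genes (21.1%). Of these, 2269 were higher in brain (8.42% of all genes) and 3419 lower (12.7%), and the median difference over all genes was 0.07. The direction was the same in FFPE and in Frozen tissue for 5685 of the called genes, a count that the choice of called genes itself favours, against 71.9% of all genes. The 3 exceptions, Olfr310, Olfr551 and Upp2, were all called higher in brain. In 5645 called genes both brain libraries lay on one side of both heart libraries, as they did in 60.2% of all genes, above heart in 30.8% and below it in 29.3%. The count depended on the Frozen libraries, with 2649 genes called without brain Frozen and 2077 without heart Frozen. It depended on the scaling in its direction: with values recomputed per total reads, without the authors' scaling, the median of all genes was 0.49, and 79.7% of 6227 calls were higher in brain, against 39.9% as deposited. With mitochondrial reads also left out of the totals, 57.7% of 5557 calls were higher. Over all genes, 1054 were called higher and 1595 lower without brain Frozen, and 966 and 1111 without heart Frozen. Without brain FFPE the counts were 1629 and 3455, and without heart FFPE 2048 and 2786. List counts given below with a library left out stand beside these counts of all 26944 genes.

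Within each preservation, where there is 1 library a side and no test, at least a 2-fold difference was counted over genes with at least 40 reads in the pair. In FFPE tissue 1963 of 22805 genes were at least 2-fold higher in brain (8.61%) and 1723 lower (7.56%). In Frozen tissue 3631 of 22884 genes were higher (15.9%) and 3679 lower (16.1%). Among the 21982 genes with enough reads in both, 1140 were higher in both preservations (5.19%), which is 62.2% of those higher in FFPE and 35.0% of those higher in Frozen. Another 1236 were lower in both (5.62%), which is 73.1% of those lower in FFPE and 33.9% of those lower in Frozen. Only 5 genes were 2-fold higher in FFPE and 2-fold lower in Frozen, and 25 the reverse.

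**Figure D1:**
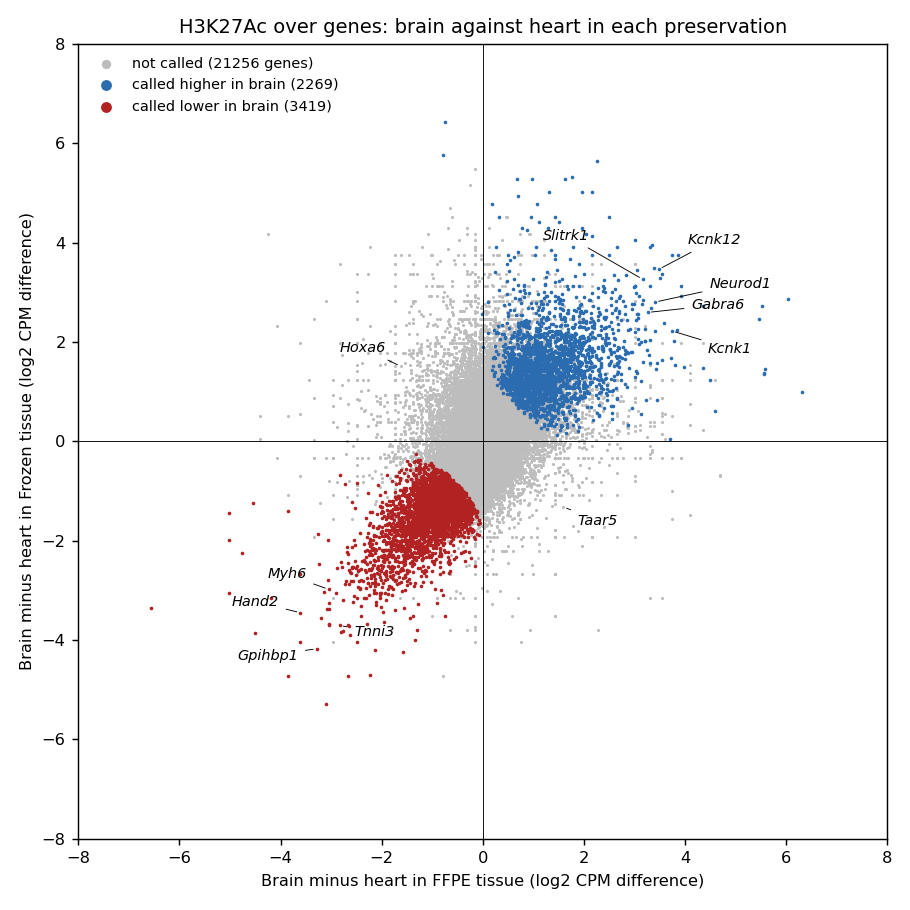
Brain minus heart in FFPE tissue (x axis) and in Frozen tissue (y axis), both in log2 CPM, 1 point per gene. Blue points were called higher in brain (2269), red points lower (3419) and grey points not called (21256); labelled genes are described in the text.

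Genes of neurons were prominent among those highest in brain, beside noncoding transcripts and genes known by an identifier only. The 12 largest differences among called genes with a mean of at least 3 log2 CPM and libraries that did not overlap belonged to Kcnk12, Mir124a-1hg, Slitrk1, Neurod1, Ppp2r2cos, Sncb, 2610035F20Rik, Amer2, Gm10558, Kcnk1, Gabra6 and 1500012K07Rik. They ran from 2.88 for 1500012K07Rik to 3.47 for Kcnk12. Kcnk12, which encodes a 2-pore-domain potassium channel subunit (chr17:87745821-87797994, GRCm38), had 6.98 and 6.16 log2 CPM in brain FFPE and brain Frozen, against 3.49 and 2.69 in heart FFPE and heart Frozen. These are 605 and 412 reads in brain against 48 and 29 in heart. The ratio of brain to heart was 11.3 in FFPE (95% interval 8.40 to 15.5, counting error only) and 11.2 in Frozen (7.70 to 17.0), and the limma difference was 3.47 ± 0.35 (SE, adjusted p = 1.69e-08).

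Slitrk1, a transmembrane protein of synapse formation, stood at 7.42 and 6.76 in brain against 4.26 and 3.50 in heart, a difference of 3.21 ± 0.31 (limma adjusted p = 8.89e-09). Both brain libraries of each of these genes lay above all 6 other libraries of the table. Mir124a-1hg, the host gene of a microRNA that marks neurons, had 8.40 and 7.22 in brain against 4.90 and 3.93 in heart. Neurod1, a basic helix-loop-helix factor of neuronal differentiation, had 7.36 and 5.88 in brain against 3.95 and 3.08 in heart. Gabra6, the GABA-A receptor subunit of cerebellar granule cells, had 6.95 and 5.34 in brain against 3.69 and 2.74 in heart. For Mir124a-1hg, Neurod1 and Gabra6 the brain libraries were over 1 log2 unit apart, with FFPE the higher, and both still lay above heart. The same held for 2610035F20Rik, Gm10558 and 1500012K07Rik. Kcnk1, another potassium channel subunit, was also high in kidney, with 6.83 and 6.0 in brain, 5.33 and 5.59 in kidney FFPE and kidney Frozen, and 3.08 and 3.78 in heart.

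The 12 largest differences in the other direction were a mixture of cardiomyocyte, endothelial and stress-response genes. They were Gpihbp1, Hand2, Fabp4, Hrct1, Tnni3, Tcim, Txnip, Zfp36, Depp1, AW112010, Myh6 and Hspb7, and ran from -3.73 for Gpihbp1 to -2.99 for Hspb7. Gpihbp1, which anchors lipoprotein lipase on capillary endothelium (chr15:75596630-75598213), had 3.11 and 2.45 in brain FFPE and brain Frozen against 6.4 and 6.62 in heart FFPE and heart Frozen. Its difference was -3.73 ± 0.30 (limma adjusted p = 1.12e-09). Hand2, a transcription factor of heart development (chr8:57320983-57324517), had 3.11 and 3.48 in brain against 6.72 and 6.93 in heart, and its brain libraries had 41 and 64 reads against 453 and 556. Tnni3, cardiac troponin I, had 2.88 and 2.62 in brain against 5.72 and 6.32 in heart. Myh6, the alpha myosin heavy chain of cardiac muscle, had 5.81 and 5.78 in brain against 8.86 and 8.75 in heart. All 24 genes of these 2 sets were called under each of the 19 other settings tried, a test against a 2-fold difference included. They were chosen as the largest called differences in the same libraries, and that choice itself favours this count. Of all 162 named and called genes, 63 were called in every setting.

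The low brain values of these genes differed in kind when kidney and liver were set beside them. For Hand2, Tnni3 and Myh6 heart stood above all 6 other libraries. Zfp36, a protein that destabilises inflammatory mRNAs, had 5.10 and 4.84 in brain against 8.14 and 8.21 in heart, but 7.36 to 8.71 in the kidney and liver libraries. Tcim had 4.52 and 3.87 in brain against 7.15 and 7.76 in heart, and liver Frozen, at 7.87, stood above both. Depp1 had 4.05 and 3.37 in brain against 6.72 and 7.07 in heart, and 7.53 in liver Frozen. Over all called genes, brain was the highest of the 4 organs in both preservations for 1719 of the 2269 genes higher in brain (75.8%), and heart the lowest for 848 (37.4%). Of the 3419 genes lower in brain, brain was the lowest organ for 2086 (61.0%) and heart the highest for 1992 (58.3%). Of all genes tested, brain was the highest organ in both preservations for 17.3% and the lowest for 15.4%. Heart was the highest for 14.4% and the lowest for 11.0%. Called genes were chosen by brain against heart, and that choice itself favours these places. The shares of all genes are therefore not a like background.

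**Figure D2:**
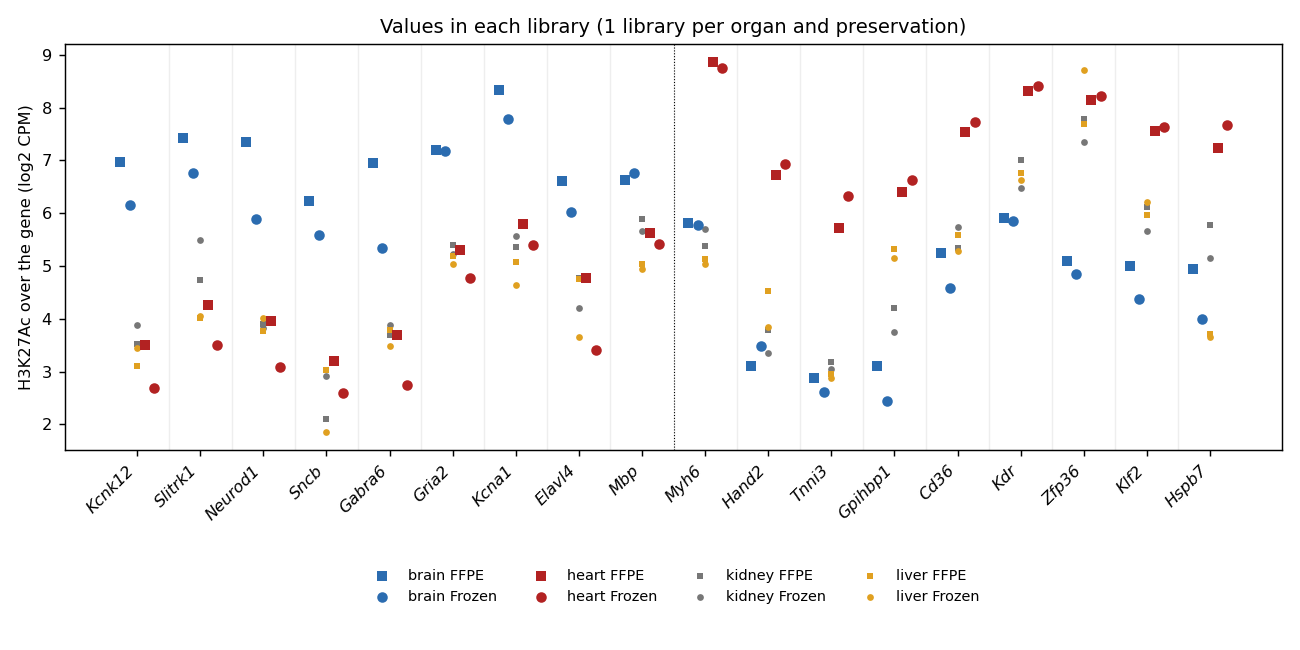
Log2 CPM of 18 genes in each library, brain (blue) left of heart (red), with kidney and liver as small points; squares are FFPE and circles Frozen. The 9 genes left of the dotted line were called higher in brain and the 9 on the right lower, and in none do brain and heart overlap.

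Genes of the synapse carried more H3K27Ac in brain. Of 25 presynaptic genes 18 were called higher in brain and 0 lower, with a median difference of 1.52, where 8.42% of all genes were called higher and their median was 0.07. Syt1, the calcium sensor of vesicle release, had 6.49 and 6.09 in brain against 4.56 and 4.01 in heart (2.01 ± 0.28, limma adjusted p = 3.08e-06). Cplx2, complexin, which clamps the fusion machinery, had 6.22 and 5.97 against 4.21 and 3.99. Sncb, beta-synuclein, had 6.24 and 5.59 against 3.20 and 2.59. All 3 were apart in every library, with the highest heart value at least 1 log2 unit under the lowest brain value. The transporters that load glutamate (Slc17a7, Slc17a6) and GABA (Slc32a1) into vesicles were also called, at 1.52 to 1.63. The 7 not called were Syn1, Syn2, Stx1a, Vamp2, Syp, Unc13a and Rab3a, of which Vamp2 had the lowest difference, -0.57.

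Of 25 postsynaptic genes, 19 were higher and 1 was lower, with a median of 1.47. Gria2, an AMPA receptor subunit, had 7.20 and 7.18 in brain against 5.31 and 4.77 in heart (2.15 ± 0.26, limma adjusted p = 2.07e-07). The GABA-A subunit Gabrb2 differed by 2.04. The subunits of NMDA receptors in the list, Grin1, Grin2a and Grin2b, differed by 1.84, 1.72 and 1.88. The exception was Nrgn, neurogranin, a postsynaptic calmodulin-binding protein of forebrain neurons, with 4.75 and 4.87 in brain against 5.89 and 5.86 in heart (-1.06 ± 0.28, adjusted p = 0.00664, not called without brain FFPE or without heart Frozen). Camk2a, the kinase of synaptic plasticity, was not called, with 5.94 and 5.97 in brain against 5.98 and 6.10 in heart.

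Of 20 ion channel genes of neurons, 15 were higher and 0 lower, with a median of 1.39. Kcna1 and Kcnc1, voltage-gated potassium channels of fast-firing neurons, had 8.33 and 7.79, and 8.26 and 7.27, in brain, against 5.80 and 5.40, and 5.71 and 4.69, in heart. Of 24 genes of the neuronal cytoskeleton and neuronal RNA-binding proteins, 18 were higher and 1 lower (median 1.25). Elavl4, a neuronal RNA-binding protein, had 6.62 and 6.03 in brain against 4.77 and 3.41 in heart. Nova2, of the same list, went the other way, with 6.79 and 6.4 in brain against 7.42 and 7.74 in heart (-0.99 ± 0.26, limma adjusted p = 0.005). It was not called without brain Frozen, without heart Frozen or with libraries brought to the same spread. Of 15 genes of inhibitory neurons and neuropeptides, 6 were higher (median 1.15), among them Gad1 and Gad2, the enzymes of GABA synthesis, at 1.43 and 1.2. The other 9 were not called.

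Of 25 transcription factors of neurons, 16 were higher and 1 lower (median 1.12). Zic1, a zinc-finger factor of the cerebellum, had 7.61 and 6.03 in brain against 4.52 and 4.07 in heart, and Neurod2, a factor of excitatory neurons, 7.13 and 6.09 against 4.59 and 4.33. Lhx6, of cortical interneurons, was lower in brain by the test (4.68 and 4.73 against 5.58 and 5.33, adjusted p = 0.0477) but lost the call in 15 of 19 other settings. Without brain Frozen or without heart Frozen, 10 of the 25 were called higher.

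Glial lists gave different counts. Of 16 oligodendrocyte genes, 9 were higher and 1 lower (median 1.03), among them Mbp, myelin basic protein, with 6.63 and 6.76 in brain against 5.62 and 5.41 in heart, and Cldn11, a claudin of myelin, at 1.84. The lower one was Myrf, a factor of myelination (6.20 and 5.71 against 6.70 and 7.04), a call lost without brain Frozen, without heart Frozen, per total reads and without a variance trend. Of 15 astrocyte genes, 6 were higher and 1 lower (median 0.71). Aldoc, the brain aldolase, had 5.02 and 4.99 in brain against 3.52 and 3.29 in heart, whereas Gja1, connexin 43, which couples both astrocytes and cardiomyocytes, had 4.31 and 4.06 against 6.28 and 6.26 (-2.08 ± 0.30, limma adjusted p = 3.82e-06). Without brain Frozen only 3 oligodendrocyte and 2 astrocyte genes were called higher, and without heart Frozen 4 and 3.

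The small counts that follow stand beside shares of 8.42% higher and 12.7% lower among all genes. None of 12 microglia genes was called higher and 2 were lower, Olfml3 and Gpr34. Without heart Frozen neither was, and Gpr34 was lost without either FFPE library as well. Cx3cr1, the fractalkine receptor of microglia, had 4.68 and 4.67 in brain against 4.90 and 4.26 in heart, and Csf1r, which macrophages share, 5.25 and 5.35 against 5.35 and 5.06, so both overlapped. Genes of the blood-brain barrier gave 3 higher and 1 lower of 12. The lower one was Cldn5, claudin 5 of endothelial tight junctions, with 3.85 and 3.69 in brain against 5.93 and 6.25 in heart (-2.32 ± 0.30, limma adjusted p = 7.22e-07). Of the 3 higher ones, Mfsd2a, Slco1a4 and Ocln, none was called without brain FFPE or without heart FFPE, and 1 without brain Frozen or without heart Frozen. Of 10 genes of choroid plexus and ependyma, 2 were higher, Otx2 and Foxj1, and neither was called without brain Frozen or without heart Frozen.

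The contractile apparatus of the heart made up the opposite pole. Of 26 sarcomere genes 22 were called lower in brain, where 12.7% of all genes were, and 1 higher, with a median of -1.67. Myh7, the beta myosin heavy chain, had 5.91 and 5.73 in brain against 7.76 and 8.00 in heart (-2.06 ± 0.26, limma adjusted p = 6.53e-07). The regulatory light chain Myl2 and cardiac alpha-actin Actc1 differed by -2.37 each. Heart was the highest of the 4 organs for 20 of the 22. The exception was Nebl, nebulette, a Z-disc protein, with 5.07 and 5.13 in brain against 4.50 and 3.91 in heart (0.90 ± 0.32, adjusted p = 0.0415), a call lost without any 1 of the 4 brain and heart libraries. Mybpc3, cardiac myosin-binding protein C, was not called (7.02 and 6.28 in brain against 6.74 and 7.06 in heart). Of 17 genes listed for skeletal muscle, 0 were lower and 2 were higher, Acta1 and Myh1, where 8.42% of all genes were higher. Acta1, skeletal alpha-actin, had 6.09 and 6.05 in brain against 3.79 and 4.60 in heart (1.88 ± 0.36, adjusted p = 0.000253). Without brain FFPE 4 genes of this list were higher, and without heart FFPE 3 and without heart Frozen 1.

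Calcium handling, channels and junctions moved in part. Of 18 calcium-handling genes, 6 were lower and 0 higher (median -0.42). Jph2, which holds the sarcoplasmic reticulum to the transverse tubules, had 4.50 and 5.18 in brain against 6.74 and 7.46 in heart, and Pln, phospholamban, the inhibitor of the calcium pump, 5.11 and 4.98 against 6.99 and 7.35. Ryr2, the calcium release channel, was close in both organs, with 7.71 and 7.63 in brain against 8.06 and 7.83 in heart (-0.27 ± 0.27). Of 20 cardiac channel and junction genes, 11 were lower and 0 higher (median -0.92). Kcne1, a potassium channel subunit of repolarisation, had 4.50 and 4.49 against 6.65 and 6.98, and Popdc2, a cAMP-binding membrane protein of the conduction system, 4.2 and 3.65 against 6.11 and 6.85. Without heart Frozen, 2 calcium-handling genes and 7 channel and junction genes were lower.

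Among 25 cardiac transcription factors 15 were lower and 1 higher (median -1.11). Gata6 and Gata4, zinc-finger factors of the heart and of endoderm, had 4.85 and 4.42, and 4.69 and 4.44, in brain, against 7.0 and 7.41, and 6.64 and 6.85, in heart. The one higher in brain was Mef2c, which acts in both muscle and neurons (6.67 and 6.34 against 5.87 and 5.60, adjusted p = 0.0312). That call was lost when any 1 of the brain or heart libraries was left out. Without heart Frozen 9 factors were lower. Of 15 secreted factors, 6 were lower and 3 higher. Nppb, B-type natriuretic peptide, had 2.09 and 1.68 in brain against 4.89 and 5.51 in heart. The 3 higher ones were Fgf12, Fgf13 and Mstn. Mstn lost its call in 11 of 19 other settings, among them each that left out a brain or heart library, and Fgf13 in 9 of 18, among them without brain FFPE, without brain Frozen and without heart Frozen. Fgf12 and Fgf13 are intracellular partners of sodium channels that neurons also use. Fgf12 had 5.82 and 5.36 in brain against 4.30 and 2.83 in heart. Without heart Frozen 3 of the 15 were lower.

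Genes of fatty acid use and muscle energy supply were lower in brain. Of 24 genes of fatty acid uptake and oxidation, 13 were lower and 0 higher (median -0.81). Cd36, a fatty acid carrier of endothelium and muscle, had 5.24 and 4.57 in brain against 7.55 and 7.73 in heart (-2.73 ± 0.27, limma adjusted p = 9.91e-09). Lpl, lipoprotein lipase, had 4.71 and 4.50 against 6.92 and 7.19. Of 20 genes of muscle energy transfer, 16 were lower and 0 higher (median -1.22). Cox6a2, the heart and muscle form of a cytochrome c oxidase subunit, had 2.41 and 2.25 in brain against 5.45 and 5.94 in heart, with 1.15 to 1.78 in kidney and liver. Without heart Frozen these counts were 7 and 4, where 1111 of all genes were lower. Without brain Frozen they were 8 and 13, where 1595 of all genes were lower.

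Endothelial genes were lower in brain as a group. Of 20, 17 were lower and 0 higher, with a median of -1.71. Kdr, the main receptor of VEGF-A, had 5.91 and 5.84 in brain against 8.32 and 8.41 in heart (-2.49 ± 0.26, limma adjusted p = 1.77e-08), and Egfl7, an endothelial secreted protein, 4.55 and 4.32 against 6.90 and 6.70. Pecam1 and Cdh5, endothelial adhesion molecules, differed by -1.95 and -1.67. The 3 not called were Emcn, Erg and Vwf. The Notch ligand Dll4 and the Notch target Heyl, from a list of 15 angiogenesis, Notch and hypoxia genes of which 9 were lower and 0 higher, differed by -2.23 and -2.09. Without heart Frozen 14 endothelial genes and 5 of this list were lower. Of 8 Gimap genes, GTPases of lymphocytes and endothelium, 6 were lower. In contrast, of 14 lymphocyte genes 1 was lower (Cd79a) and 1 higher (Cd4), and all 3 Cd3 genes were not called.

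Other resident cells of the heart gave smaller counts, where 12.7% of all genes were lower and 8.42% higher. The Schwann cell, epicardial, nephron and erythroid counts below lay near these shares. Of 20 fibroblast and matrix genes 7 were lower (median -0.53), led by Tcf21, a factor of cardiac fibroblasts, with 3.50 and 3.29 in brain against 5.05 and 5.75 in heart. The genes for the chains of collagen I, Col1a1 and Col1a2, were not called (-0.58 and -0.35). Of 14 smooth muscle and pericyte genes 5 were lower, of 14 macrophage genes 4, of 12 adipocyte genes 5, of 12 Schwann cell and autonomic genes 2 and of 10 epicardial genes 1, Wt1. Msln, of the mesothelium, was the 1 epicardial gene higher in brain. Without heart Frozen the counts were 3 for fibroblasts, 3 for smooth muscle, 2 for macrophages, 2 for adipocytes and 0 for Schwann cells. Without brain Frozen they were 3 for smooth muscle, 2 for macrophages and 1 for Schwann cells, and without brain FFPE 4 for fibroblasts and 2 for macrophages. Msln was lost without either Frozen library. Of the lists for cells of other organs, 16 hepatocyte genes gave 3 higher and 0 lower, 15 nephron genes 1 and 0, and 8 erythroid genes 1 and 0. Called members of these 3 lists stood at 0.71 to 1.76 and, except for the nephron gene Kap, under 1. No member of these lists was called higher without heart Frozen, and 3 nephron genes were without either FFPE library. None of 5 sex-linked genes was called.

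**Figure D3:**
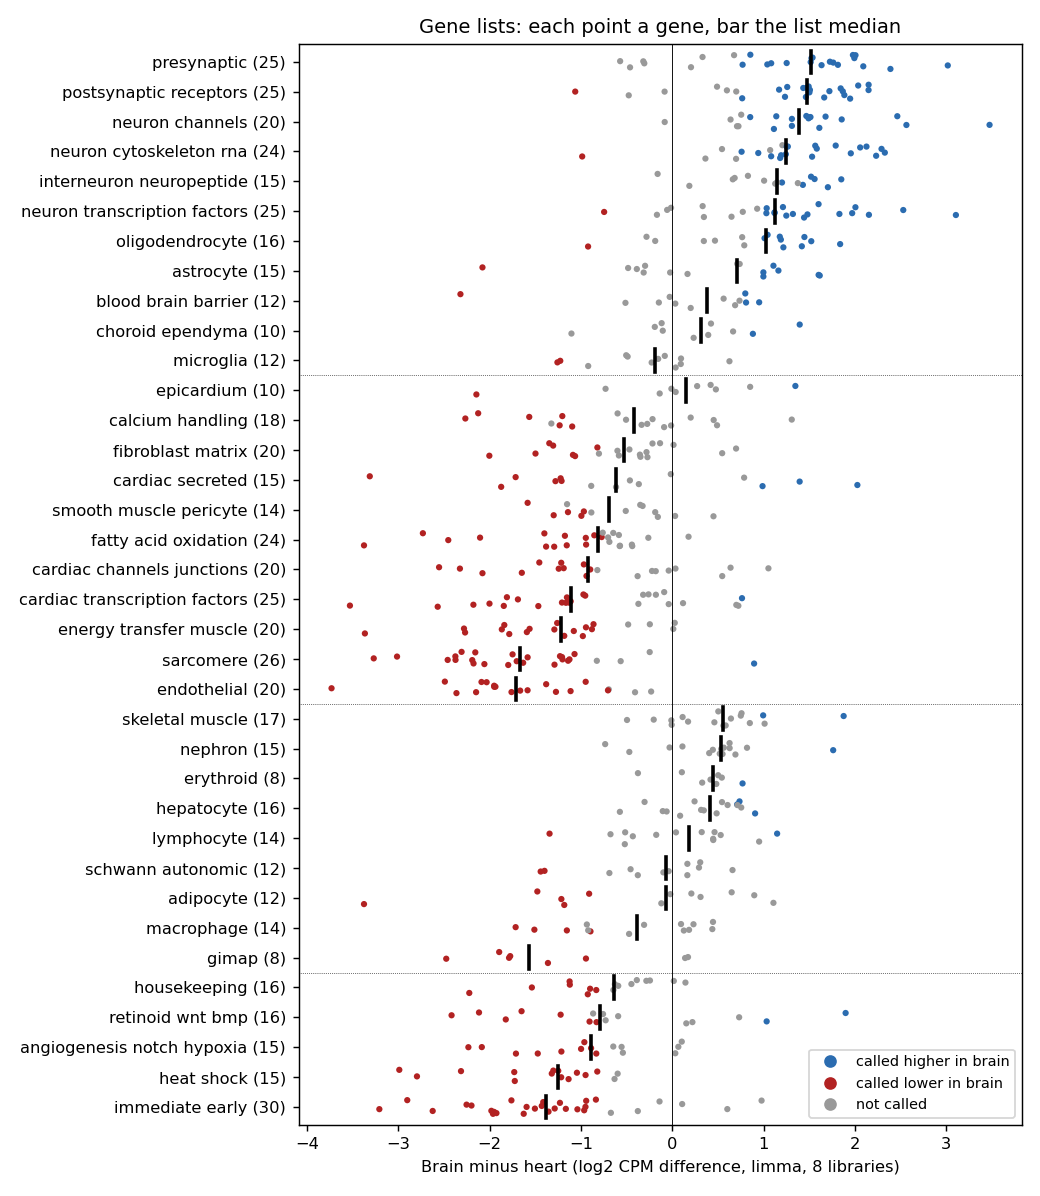
Brain minus heart (log2 CPM, limma) for the members of 36 gene lists, with the number of members tested; each point is a gene, coloured where called, and the black bar is the list median. The lists are grouped from the top as brain cells, heart cells, other cells and processes.

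Most of the listed immediate early and heat-shock genes were lower in brain. Of 30 immediate early genes 24 were lower and 0 higher (median -1.38). Klf2, a factor induced by blood flow in endothelium, had 5.01 and 4.38 in brain against 7.57 and 7.63 in heart (-2.90 ± 0.26, limma adjusted p = 3.2e-09). Jun and Fos, which form the AP-1 factor, had 7.22 and 6.96, and 5.80 and 5.26, in brain, against 8.13 and 8.75, and 6.25 and 6.73, in heart. The 6 not called were Egr1, Egr2, Egr3, Nr4a2, Nr4a3 and Gadd45b. Egr1 had 6.83 and 5.99 in brain against 6.58 and 6.02 in heart. Arc and Npas4, activity-regulated immediate early genes, were placed in the neuronal lists and are not among these 30. They were higher in brain by 1.26 and 1.32. Of 15 heat-shock genes 13 were lower and 0 higher (median -1.25), among them Hspb1, a small heat-shock protein (4.52 and 4.08 against 6.48 and 7.71), and the inducible Hspa1a and Hspa1b at -1.30 and -1.72. The medians of both lists were more negative in Frozen than in FFPE tissue. They were -1.82 against -0.95 for immediate early genes and -1.78 against -0.65 for heat-shock genes. Genes with high values in general moved the same way, with -0.56 against -0.19 in the top quartile by mean value. Housekeeping genes had -0.89 against -0.51, and the angiogenesis, Notch and hypoxia list -1.11 against -0.47. The endothelial median did not, with -1.62 in Frozen and -1.72 in FFPE tissue. Whether the stress lists moved further than genes of like level was not tested. Without brain Frozen 13 immediate early and 5 heat-shock genes were lower, and without heart Frozen 15 and 6. Without a variance trend in the fit 12 and 5 were lower. A list of 16 genes of retinoid, Wnt and BMP signalling gave 7 lower and 2 higher. The BMP targets Id3 and Id1 differed by -2.42 and -2.12, and Wnt7a and Wnt10a, secreted ligands, by 1.90 and 1.03.

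Genes often used as references leaned towards heart. Of 16 housekeeping genes 7 were lower in brain and 0 higher (median -0.64), with B2m, the light chain of class I MHC, at 3.11 and 3.37 in brain against 5.36 and 5.56 in heart, and Actb at -1.54. Without heart Frozen 2 were lower, without brain Frozen 3 and per total reads 2. Genes with high values in general leaned the same way. With genes ordered by their mean over the 8 libraries, the highest 25% held 355 higher and 1860 lower, and the lowest 25% held 392 higher and 85 lower. With every library brought to the same median and spread, these became 790 and 1307 in the highest 25% and 159 and 173 in the lowest, and of all genes 9.82% were higher and 11.3% lower. Under that scaling 20 sarcomere genes, 16 endothelial, 22 immediate early and 12 heat-shock genes were lower, and 19 presynaptic and 21 postsynaptic genes higher. The part that the wider spread of the heart libraries has in the excess of lower calls was not tested further. Per total reads, 4963 of all 26944 genes were higher in brain and 1264 lower, and the list counts that follow stand beside these. In that setting 18 sarcomere, 14 endothelial, 18 immediate early and 9 heat-shock genes were lower. The lower counts of other heart lists fell by a larger factor, to 8 muscle energy genes, 8 cardiac transcription factors, 8 genes of fatty acid use, 6 channel and junction genes and 3 calcium-handling genes. The higher counts were 8 for skeletal muscle, 8 for nephron, 6 for hepatocyte and 6 for blood-brain barrier genes. The medians of the microglia, calcium-handling, macrophage, adipocyte and Schwann cell lists turned positive.

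Many proteins have a form used in brain and a related form used in heart, and their genes could be compared pair by pair. In 30 such pairs the brain form was called higher in 15 and lower in 3, and the heart form lower in 22 and higher in 0. Both were called in opposite directions in 10. Among these were the pairs Ckmt1 and Ckmt2 of mitochondrial creatine kinase, Atp2b2 and Atp2a2 of the calcium pumps, Snap25 and Snap23 of membrane fusion, Aldoc and Aldoa, Slc2a3 and Slc2a4, Eno2 and Eno3, and Mef2c and Mef2a. Snap25, of neurotransmitter release, had 6.26 and 5.32 in brain against 4.13 and 3.99 in heart, whereas Snap23, its widely expressed relative, had 4.89 and 4.59 against 5.51 and 5.85. Slc2a3, the glucose transporter of neurons, had 5.91 and 5.87 in brain against 4.88 and 4.46 in heart, and Slc2a4, the insulin-responsive one, 4.86 and 4.51 against 6.36 and 6.74.

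In the cytochrome c oxidase subunits the heart forms had the larger differences. Cox6a2, Cox7a1 and Cox8b differed by -3.37, -1.84 and -2.27, while the common forms Cox6a1, Cox7a2 and Cox8a differed by -0.81, -1.19 and -0.59, of which Cox7a2 was called. The difference between the forms was not tested. Actb, the non-muscle actin, and Pygb, the brain glycogen phosphorylase, were called lower in brain together with their heart partners. Pygb lost its call in 15 of 19 other settings, among them each of the 4 that left out a brain or heart library and all 5 other scalings. Aldoa, of an opposed pair, lost its call in 13 of 19, all 5 other scalings included. Neither form was called in the pairs Camk2a and Camk2d, Ryr3 and Ryr2, and Cacna1a and Cacna1c. The 10 opposed pairs became 2 without brain Frozen, 2 without heart Frozen and 6 without heart FFPE.

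**Figure D4:**
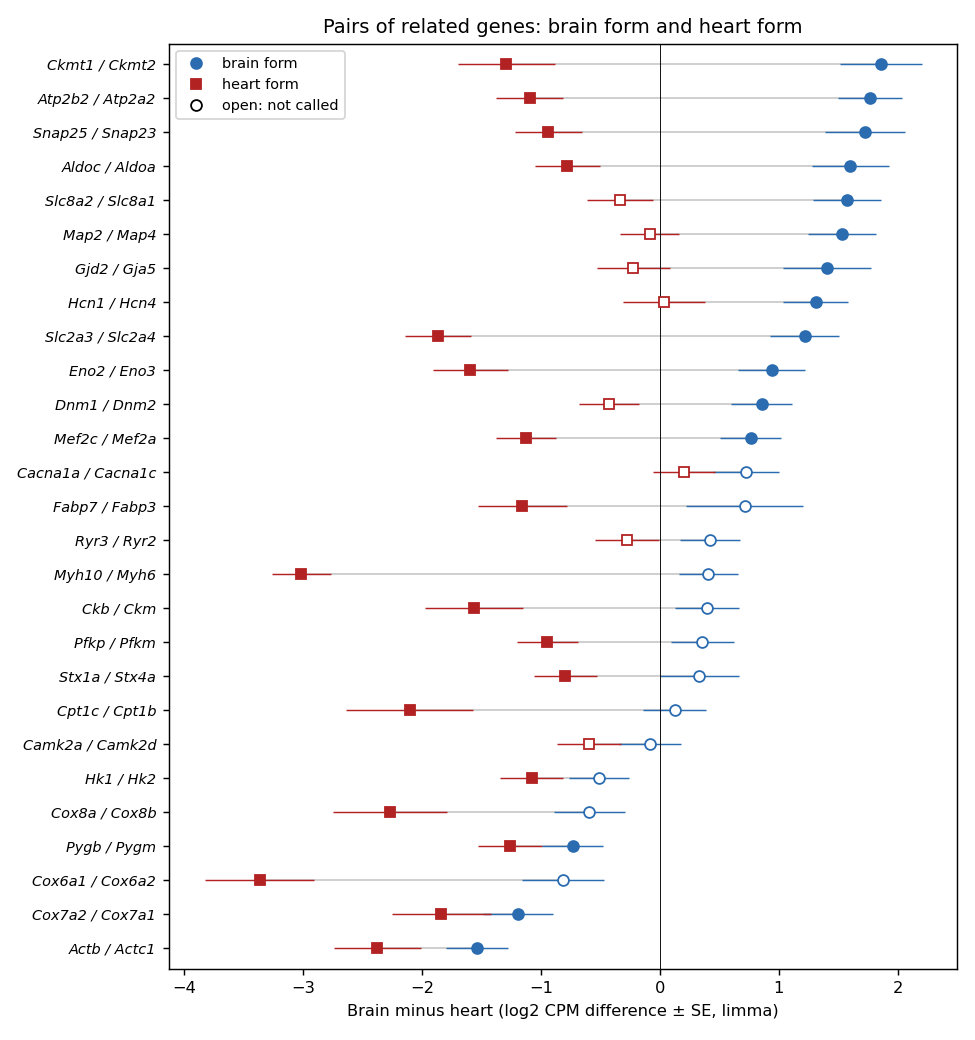
Brain minus heart (log2 CPM ± SE, limma) for 27 of the 30 pairs of related genes, the brain form as a blue circle and the heart form as a red square; open symbols were not called. In 18 of the pairs plotted the brain form lies above 0 and the heart form below it.

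H3K27Ac over a microRNA hairpin marks its surroundings, often the host gene, and is not a level of the microRNA. Of 573 microRNA loci tested, 20 were higher in brain (3.49%, where 8.42% of all genes were) and 36 lower (6.28%, where 12.7% of all genes were), and the median locus had 16 reads over the 4 libraries. The loci named here were chosen after their values were seen, from microRNAs known in brain or heart. The mature forms follow, from RefSeq (GRCm38.p6), 5′ to 3′ with the seed, bases 2 to 8, in capitals. The first 5 have loci called higher in brain and the rest belong to heart muscle or endothelium.
mmu-miR-9-5p: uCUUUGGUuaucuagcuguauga
mmu-miR-128-3p: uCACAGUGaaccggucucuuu
mmu-miR-129-5p: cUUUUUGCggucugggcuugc
mmu-miR-219a-5p: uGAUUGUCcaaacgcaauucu
mmu-miR-137-3p: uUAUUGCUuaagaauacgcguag
mmu-miR-208a-3p: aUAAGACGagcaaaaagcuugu
mmu-miR-208b-3p: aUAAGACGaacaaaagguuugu
mmu-miR-499-5p: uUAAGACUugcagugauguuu
mmu-miR-126a-3p: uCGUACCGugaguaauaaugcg

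All 3 loci of miR-9, a regulator of neural progenitors, were higher in brain, with 53 and 33, 47 and 33, and 39 and 29 reads in brain FFPE and brain Frozen at Mir9-1, Mir9-2 and Mir9-3, against 3 and 6, 9 and 1, and 3 and 1 in heart FFPE and heart Frozen. Mir124a-3 had 40 and 42 reads in brain against 2 and 2 in heart, a ratio of 17.2 (95% interval 6.46 to 64.5, counting error only). Mir128-2 had 25 and 29 against 0 and 3, a ratio of 15.1 (4.89 to 75.4). Mir129-2, Mir219a-2, of a microRNA known from oligodendrocytes, Mir137 and Mir124a-2 were also called higher, at adjusted p between 0.00327 and 0.0369 by limma. Other loci of the same microRNAs were not called. Mir128-1 had 15 reads in brain against 3 in heart, summed over both preservations (limma adjusted p = 0.189), and Mir129-1 had 15 against 6 (0.648). Mir219a-1, with more reads, had 79 in brain against 108 in heart, a difference of -0.63 (limma adjusted p = 0.274). miR-208a and miR-208b share the seed UAAGACG and are carried in introns of Myh6 and Myh7. Mir208a had 1 and 7 reads in brain against 43 and 23 in heart, and Mir208b 1 and 2 against 24 and 17. Reads there cannot be separated from those of the host gene. Mir499, whose seed UAAGACU differs in its last base, had 3 and 9 reads in brain against 3 and 10 in heart, and was not called.

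Mir1a-1, Mir133a-1, Mir145a and Mir126a, of muscle and endothelium, were lower, with 8, 8, 12 and 5 reads in brain, against 57, 61, 59 and 34 in heart, summed over both preservations. Mir133a-2, with 18 reads in brain against 54 in heart, was not called (limma adjusted p = 0.0985), nor was Mir133b, with 14 against 5 and a difference of 1.87 (0.204). Mir126a lies in Egfl7, which was lower as well. Of the 20 called microRNA loci and host genes in this set of 32, 5 were called whichever library was left out, the host genes Mir124a-1hg, Mir124-2hg, Mir9-3hg and Mir22hg and the locus Mir208b.

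**Figure D5:**
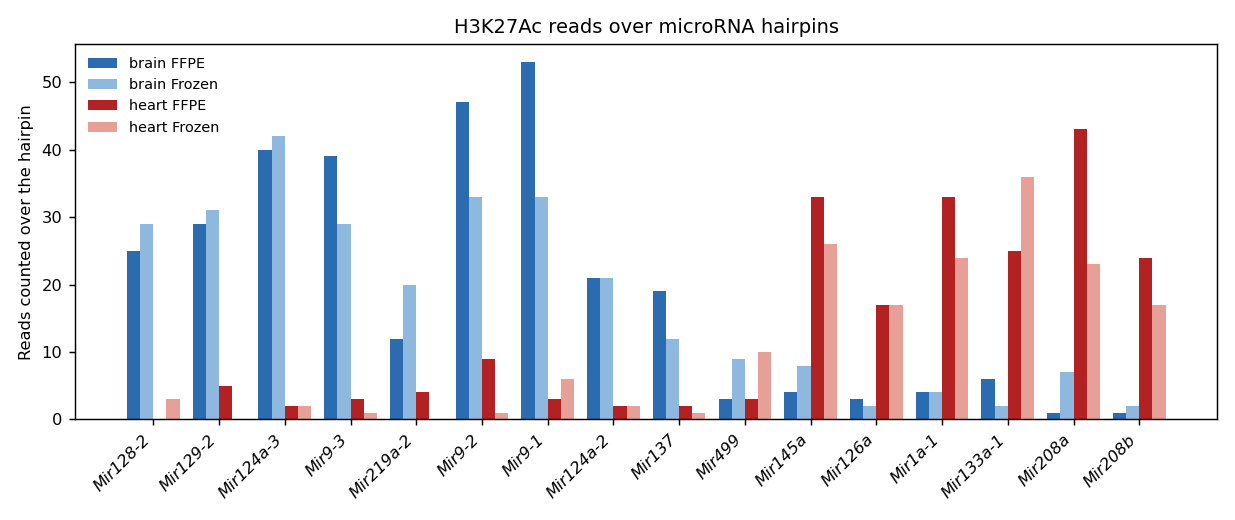
Reads counted over 16 microRNA hairpins in brain FFPE, brain Frozen, heart FFPE and heart Frozen, 1 bar per library. The 9 loci on the left were called higher in brain and the 6 on the right lower, while Mir499 was not called.

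Called genes also lay side by side along chromosomes. Runs of at least 5 neighbouring genes called in the same direction numbered 31, 6 higher and 25 lower in brain, and neighbours can share reads where they overlap. The longest higher run had 8 genes on chromosome 14 (chr14:122170994-122913413) around Zic2 and Zic5, zinc-finger factors of the cerebellum and midline, with a mean difference of 2.03. Other higher runs held Lrrtm1 with Ctnna2 on chromosome 6, Cntn2 with Nfasc on chromosome 1, adhesion molecules of the axon, and Bex2 with Gprasp2 on chromosome X. The longest lower run, of 7 genes on chromosome 8, held Egln1, an oxygen sensor, and Disc1 and averaged -1.14. Of the 31 runs the one with the mean furthest from 0 was the cardiac myosin locus (chr14:54936176-54994626), with Cmtm5, Myh6, Mir208a, Mhrt, Myh7 and Mir208b at -2.52, and Mhrt overlaps Myh7 on the other strand. Further lower runs of 6 held Eng on chromosome 2, Apoe and Bcl3 on chromosome 7, and Tnk1 on chromosome 11.

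Genes called higher in brain spanned more of the genome than genes in general. The median genomic span was 24512 bases for genes called higher, against 13439 for genes called lower and 14610 for all genes. The lower quartile was 5072 bases for genes called lower and 4174 for all genes. In the 250 bases before and 50 after the start of transcription (RefSeq, GRCm38.p6, 22250 windows of 18438 genes), windows of genes called higher held a median of 7 CpG, against 14 for genes called lower and 9 for all. The called sets also differed in level and, as given above, changed with the scaling. Their median mean log2 CPM was 4.31 for genes called higher and 5.53 for those called lower, against 4.41 for all. The part of level or scaling in span and CpG was not tested. The CArG box, bound by serum response factor in muscle and in immediate early genes, was searched on both strands. It occurred in 1.41% of all windows, in 1.16% of those of genes called higher and in 1.81% of those called lower. It was in 7 of 30 windows of sarcomere genes (23.3%) and 5 of 27 of immediate early genes (18.5%), against 0 of 27 for presynaptic genes. Windows of 1 gene overlap, so these counts are descriptions. The motif and the windows were chosen after the results were known. The 250 bases before the start of 3 called genes that hold it are printed in the direction of the gene, 5′ to 3′, with the box in capitals, to show its place.
Actc1, chr2:114052876-114053125, minus strand: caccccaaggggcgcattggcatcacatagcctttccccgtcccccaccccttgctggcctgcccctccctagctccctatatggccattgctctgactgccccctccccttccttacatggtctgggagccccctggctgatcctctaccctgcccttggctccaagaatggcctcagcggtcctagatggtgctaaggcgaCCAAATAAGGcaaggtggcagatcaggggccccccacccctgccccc
Myl3, chr9:110763428-110763677, plus strand: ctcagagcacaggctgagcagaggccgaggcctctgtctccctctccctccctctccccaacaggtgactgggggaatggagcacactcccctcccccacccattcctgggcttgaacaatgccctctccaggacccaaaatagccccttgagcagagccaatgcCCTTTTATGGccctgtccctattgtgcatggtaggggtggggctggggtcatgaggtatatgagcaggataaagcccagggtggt
Zfp36, chr7:28379229-28379478, minus strand: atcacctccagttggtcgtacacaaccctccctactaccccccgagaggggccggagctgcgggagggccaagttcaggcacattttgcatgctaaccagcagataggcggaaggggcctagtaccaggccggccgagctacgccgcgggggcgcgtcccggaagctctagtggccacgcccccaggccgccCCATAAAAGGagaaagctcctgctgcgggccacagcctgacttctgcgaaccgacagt

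The box began 47 bases before the start of Actc1, 85 before that of Myl3 and 58 before that of Zfp36. Actc1 had 3.81 and 3.94 log2 CPM in brain against 6.14 and 6.36 in heart, with 2.05 to 3.25 in kidney and liver. Myl3, the ventricular essential light chain, had 2.57 and 3.13 against 4.90 and 5.72. Heart was thus the highest organ for both, in contrast to Zfp36, which was high in kidney and liver too. Of the other letters searched, TATAAA was in 10.7% of windows of genes called higher and 8.09% of those called lower (11.4% of all). CAGCTG was in 13.5% and 13.7% (12.5% of all). In sarcomere, immediate early and presynaptic windows, CAGCTG was in 20%, 18.5% and 25.9%. The MEF2 site was in 10%, 14.8% and 0% of them (2.49% of all). AGATAA was in 20%, 3.70% and 18.5% (8.79% of all), and TATAAA in 3.33%, 14.8% and 7.41%. The CArG box was thus not the only motif above its share of all windows in these lists. Further motifs were searched and are not given here.

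Set beside the other organ pairs of the same model, brain and heart differed in more genes (21.1%) than brain and kidney (10.9%) or heart and kidney (9.71%), and in fewer than brain and liver (26.3%). These pairs share libraries and the differences between the counts were not tested.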

How the data were processed

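H3K27Ac chromatin immunoprecipitation was sequenced in FFPE and Frozen mouse organs. The submitters' processing notes name Bowtie2, featureCounts, limma and build mm10, with no version and no word on which part of a gene was counted. The authors deposited log2 CPM values, already scaled, for 27179 genes in 8 columns. Every value returned a whole count plus 0.5 within 0.001. These recovered counts gave the depths, the read numbers, the intervals and the minimum of 40 reads in a pair. They also went into the alternative fits per total reads, with and without mitochondrial reads, and with counts added. The 235 genes at 0 in all columns were removed. The deposited log2 values were fitted with limma 3.58.1 in R 4.3.3 (organ plus preservation, 8 columns, 3 residual degrees of freedom, prior variance following the mean, two-sided, Benjamini-Hochberg over 26944 genes, threshold 0.05). Ratios of counts have exact 95% intervals for counting error only.

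The comparison, the 37 gene lists, the 30 pairs and the alternatives were chosen with earlier results of these data known. Named genes are the 12 largest differences in each direction among called genes with a symbol, the same sign in both preservations, a mean of at least 3 and libraries that do not overlap; the 3 smallest p-values of each brain or heart list (2 of other lists) with called members against the list's side; all pairs; the longest runs; and 3 genes each way with opposite signs. Other list members, the microRNA loci and the motifs were named after their values were seen. Of 626 list entries 624 were in the table. Positions are from RefSeq GRCm38.p6, the assembly of mm10, with 25275 identifiers matched. Inputs were not used here, and some list, pair and run members are not reported here.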

Additional observations from a re-analysis of the deposited data

Results flagged for a closer look

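The following genes had opposite signs in FFPE and in Frozen tissue, with 1 library a side in each, and the difference between preservations was not tested. Taar5, a trace amine receptor, was higher in brain by 1.59 in FFPE and lower in Frozen (-1.32), with 55 and 15 reads in brain FFPE and brain Frozen against 16 and 30 in heart FFPE and heart Frozen. Mir760 differed by 1.05 in FFPE and -1.38 in Frozen, and Tceal9 by 1.12 and -1.02. In the other direction, Hoxa6 differed by -1.62 in FFPE and 1.51 in Frozen, Olfr49 by -1.65 and 1.37, and Rab20, a small GTPase, by -1.39 and 1.27. Hoxa6 had 16 and 41 reads in brain against 45 and 11 in heart. Among the related pairs, Ckb, the brain creatine kinase, differed by 0.97 in FFPE and -0.18 in Frozen, Hcn4, the pacemaker channel, by -0.43 and 0.50, Cox6a1 by 0.22 and -1.84, and Cpt1c by 0.45 and -0.20. None of these 10 genes was called over both preservations.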

How the results depend on the processing

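No paired analysis was possible because the columns carry no replicate number. Genes were called at 5688, and between 5146 and 6227 under 5 other scalings, a filter on the lowest 25%, 2 counts added and a fit on brain and heart alone. Without the preservation block 3144 were called (1255 higher, 1889 lower), without a trend in the prior variance 1979 (984 and 995), and against a 2-fold difference 336 (114 and 222), all in the same direction in both preservations. Per total count 4963 were higher and 1264 lower. Leaving out 1 library gave 2077 to 6507 calls, 966 to 2681 higher and 1111 to 3827 lower, the lowest without heart Frozen; without brain Frozen there were 1054 higher and 1595 lower. The 10 opposed pairs became 5 per total count, 5 without the block, 0 without the trend and 0 against 2-fold, and 2 to 10 with 1 library left out. Of 25 lists with at least 5 calls, 21 had fewer calls by over 1.5 times without the trend, 10 per total count, 2 without the block, 8 without brain Frozen and 16 without heart Frozen. Without the trend the higher counts were 12 for presynaptic genes (18 with it), 10 for postsynaptic (19), 3 for oligodendrocyte (9) and 2 for astrocyte genes (6). The lower counts were 14 for sarcomere (22), 14 for endothelial (17), 9 for cardiac transcription factor (15), 8 for fatty acid (13), 6 for muscle energy (16), 5 for channel and junction (11) and 3 for calcium-handling genes (6). Runs numbered 91 at a minimum of 4 genes and 8 at 6. Of 162 named and called genes, none reversed, 63 were called in every setting and 97 whichever library was left out. With 3 residual degrees of freedom the calls lean on the variance shared across genes. Loci with few reads, such as microRNA hairpins, are limited by counting error.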

Other observations

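Genes of regions within an organ differed between the preservations. The lists were drawn up after such values had been seen, each library is single, and no test was made. Of 12 genes known from the cerebellum, 11 were higher in brain FFPE than in brain Frozen and 9 by at least 1 log2 unit, with a median difference of 1.43, against 0.01 over all genes. Cbln1, a synapse organiser of granule cells, had 7.43 in brain FFPE and 5.59 in brain Frozen, Zic2 7.34 and 5.52, and En2, a homeobox factor of the hindbrain, 6.71 and 5.58. Of 12 forebrain genes, 6 were higher in brain FFPE and 0 by 1 unit (median -0.03). The cerebellar genes also stood higher in heart FFPE than in heart Frozen, by a median of 0.59.

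In heart, 9 of 11 genes known from the atrium were higher in FFPE than in Frozen tissue, with a median difference of 0.91, and 0 of 8 ventricular genes were (median -0.57). Of all 26944 genes 13149 were higher in heart FFPE than in heart Frozen (median -0.02). In brain the atrial and ventricular genes had medians of 0.08 and 0.05. Nppa, atrial natriuretic peptide, had 3.33 and 3.41 in brain FFPE and brain Frozen, against 5.44 in heart FFPE and 3.08 in heart Frozen. Myl7, the atrial light chain, had 2.84 and 2.62 in brain against 4.47 and 2.64 in heart. Sln, sarcolipin of atrial muscle, had 2.67 and 2.35 in brain against 3.27 and -0.87 in heart, the last from 2 reads. In heart Frozen none of these 3 genes stood above both brain libraries, while Myl2, the ventricular light chain, had 5.21 in heart FFPE and 5.94 in heart Frozen. Kcna5 and Myl4, also listed for the atrium, were slightly lower in FFPE. Whether the FFPE and Frozen pieces held the same regions or chambers was not tested.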
